A study of Mus musculus with 12 samples.

Results

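The 40 genes described here cover cholesterol and fatty acid synthesis, its transcriptional control, and sterol transport, export and sensing in the mouse corneal endothelium. They were taken by symbol from a table of 32761 genes, and all 40 passed the filter on low counts that left 17965 genes for testing. By role they comprised 9 enzymes from acetyl-CoA to squalene, 10 enzymes from squalene to cholesterol, 5 SREBP factors and regulators, 10 genes of sterol transport, export, esterification and sensing, and 6 enzymes of fatty acid synthesis and desaturation. The corneal endothelium is the cell layer on the inner face of the cornea that keeps the tissue dehydrated and clear. The mutant mice were homozygous for the Q455K allele of Col8a2, which encodes a collagen VIII chain of the basement membrane under these cells, and serve as a model of early-onset Fuchs endothelial corneal dystrophy. In all, 4 groups of mice were sequenced, each as 3 libraries: early mutant (up to 2 months old), early wild type (WT, same ages), late mutant (at least 8 months old) and late WT (same ages). The column headers of the authors' deposited comparison tables call the controls C57 animals, young and old, with the number of animals behind a library and any littermate relation not given in the sources used here.

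Mammalian cells build cholesterol from acetyl-CoA through mevalonate, the isoprenoid squalene and a chain of sterol intermediates. SREBP factors, carried by SCAP and held in the endoplasmic reticulum by the INSIG proteins when sterols are plentiful, drive the genes of this route and those of fatty acid synthesis and desaturation. Surplus sterol, sensed through its oxysterol derivatives by the liver X receptors LXRα (Nr1h3) and LXRβ (Nr1h2), leaves the cell through ABC transporters onto apolipoproteins or is stored as esters.

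Every early library belonged to batch 1 and every late library to batch 2, so stage and batch cannot be told apart, while each comparison of mutant with WT was made within a batch. Total counts ran from 19722598 to 39431676 per library, at which 3 counts correspond to 0.0761 to 0.152 CPM (read counts scaled to library size). All 8 corneal endothelium markers were detected, and their summed level was lowest in 2 late WT libraries (4891 to 13907 CPM over all libraries). The markers of keratocytes, the cells of the corneal stroma, summed to 18522 to 31296 CPM, above the endothelial sum in every library, and 2 of these 8 genes were called higher in mutants at each stage. A single keratocyte gene reached up to 27752 CPM and a single endothelial gene up to 6153 CPM. These sums are not scaled to gene length and do not measure shares of cells. Macrophage and myeloid markers (17 genes) summed to 302 to 671 CPM in early mutant and 44.6 to 77.7 CPM in early WT libraries, and to 481 to 592 CPM in late mutant and 50.4 to 79.1 CPM in late WT libraries. Of these 17 genes, 8 were higher in early and 14 in late mutant libraries at an adjusted p below 0.05. For this and the other marker lists, the shares of all tested genes called higher were 0.557% early, 2.77% late and 4.04% on average. The share called lower late was 2.71%. Photoreceptor markers summed to 161 to 323 CPM in early mutant and 31.3 to 68.3 CPM in early WT libraries, and to 99.9 to 283 CPM in late mutant and 70.1 to 101 CPM in late WT libraries, with 3 of 10 called higher early, 0 late and 8 on average. Trabecular meshwork markers summed to 223 to 601 CPM in early mutant and 73.6 to 111 CPM in early WT libraries, and to 316 to 413 CPM in late mutant and 56.5 to 116 CPM in late WT libraries, with 2 of 3 called higher at each stage. Melanocyte markers summed to 90.6 to 228 CPM in early mutant and 29.2 to 42 CPM in early WT libraries, where all 6 reached an unadjusted p below 0.05 and 0 were called, and to 82 to 117 CPM in late mutant and 10.3 to 122 CPM in late WT libraries. Lens markers were called higher late for 2 of 7, and Mueller glia markers late for 1 higher and 1 lower of 6. The part of these cell types in the results on sterol genes was not tested, and in whole tissue a different number of cells of a type and a different RNA content per cell cannot be told apart. Markers of adipocytes and sebocytes, cells known for lipid synthesis, summed to at most 2.64 CPM in any library.

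Late WT replicate 1 stood apart from the other libraries of its group. It was the highest of the 3 late WT libraries for 26 of the 40 genes, and its median distance from the mean of the other two was 0.54 on the log2 scale over these genes and 0.53 over all tested genes. For late WT replicates 2 and 3 that distance was 0.39 and 0.37 over the 40 genes, and 0.41 and 0.40 over all tested genes. Early WT replicate 1 had 0.44 over the 40 genes and 0.37 over all tested genes. Late values without it are given for the 11 members whose late call it changed and for both members called late with it, and by count and median for the rest. Without late WT replicate 2 or 3 instead, 0 of the 40 genes were called late. Over 20 alternatives to the reported fit, Nr1h3 and Abcg1 were called late in 6 each, Sqle in 5, Pmvk in 4 and Ebp in 3. Lss, Sc5d, Srebf1, Srebf2, Nr1h2 and Fads1 were called late in 2 each. These 11 members were picked by the refit without late WT replicate 1, so its p-values favour them. It called 3909 of all genes late, against 983 in the reported fit. Over the 20 alternatives the largest late adjusted p was 0.22 for Sqle, 0.33 for Lss, 0.31 for Sc5d and 0.83 for Srebf1. For Srebf2, Nr1h2, Nr1h3, Abcg1, Pmvk, Ebp and Fads1 it was 0.42, 0.42, 0.16, 0.19, 0.24, 0.38 and 0.58.

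Promoter sequences are given as a description of the members. The list was built around SREBP-driven synthesis, so promoter motifs are not independent of the choice of members. RefSeq promoters (build GRCm38.p6, 250 bases before to 50 after a transcript's start) were at hand for 31 of the 40 genes. On either strand, the SREBP element TCACNCCAC occurred in the promoters of 1 of these 31 genes, Hmgcs1, against 1.44% of all 27025 genes of the table. The box CCAAT, bound by NF-Y, a factor that acts together with SREBPs, occurred in 23 of the 31, against 41.1% of all genes. The E-box CACGTG, a palindrome, occurred in 6 of the 31, against 8.09% of all genes. The DR4 element, a direct repeat read by LXR, occurred in 0 of the 31, against 0.0148% of all genes. A match of letters is a description and not a bound site, and genes with several starts had more than 1 window. The 250 bases upstream of 4 genes are printed because Msmo1, Lss and Insig1 changed in the comparisons below and Hmgcs1 held the SREBP element. Each runs 5′ to 3′ on the strand of the gene, with the SREBP element and the CCAAT box (ATTGG when on the other strand) in capitals. They lie at chr8:64733579-64733828 on the minus strand (Msmo1), chr10:76531355-76531604 on the plus strand (Lss), chr5:28071162-28071411 on the plus strand (Insig1) and chr13:119690101-119690350 on the plus strand (Hmgcs1).
Msmo1: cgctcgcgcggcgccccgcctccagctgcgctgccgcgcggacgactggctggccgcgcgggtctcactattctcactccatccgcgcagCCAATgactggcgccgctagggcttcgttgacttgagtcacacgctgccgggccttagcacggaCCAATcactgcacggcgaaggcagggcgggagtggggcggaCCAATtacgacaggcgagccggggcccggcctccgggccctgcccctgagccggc
Lss: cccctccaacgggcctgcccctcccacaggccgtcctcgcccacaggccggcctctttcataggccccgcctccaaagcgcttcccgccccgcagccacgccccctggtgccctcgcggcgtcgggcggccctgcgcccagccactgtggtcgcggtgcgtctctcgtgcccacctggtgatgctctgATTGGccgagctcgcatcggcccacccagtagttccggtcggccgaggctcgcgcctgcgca
Insig1: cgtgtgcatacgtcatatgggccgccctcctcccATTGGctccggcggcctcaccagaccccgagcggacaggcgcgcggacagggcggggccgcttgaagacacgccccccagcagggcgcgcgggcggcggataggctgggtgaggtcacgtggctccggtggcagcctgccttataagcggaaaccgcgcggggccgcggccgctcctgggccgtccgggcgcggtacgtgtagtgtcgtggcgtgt
Hmgcs1: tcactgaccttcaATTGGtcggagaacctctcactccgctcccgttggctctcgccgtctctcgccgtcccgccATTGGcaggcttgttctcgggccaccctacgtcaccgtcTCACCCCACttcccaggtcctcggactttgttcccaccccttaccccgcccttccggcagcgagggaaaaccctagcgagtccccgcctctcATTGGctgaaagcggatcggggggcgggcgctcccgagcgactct
Msmo1 held 3 CCAAT boxes, Lss and Insig1 held 1 each on the other strand, and the printed Hmgcs1 window held 3 on the other strand beside its SREBP element.

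Per unit of gene length, in the authors' FPKM values, the most abundant of the 40 genes in WT libraries was Apoe, the apolipoprotein that carries exported sterol. It averaged 16435 ± 3992 FPKM (SD over 6 WT libraries) and ranked between 3 and 5 of all genes in every library. Npc2, which moves cholesterol out of lysosomes, followed at 87.3 ± 14.2 FPKM, Ebp at 52.7 ± 9.65 FPKM, Fdps at 34.7 ± 8.7 FPKM, Pmvk at 27.5 ± 3.22 FPKM and Srebf1 at 23 ± 13.6 FPKM. The lowest levels were those of Lss at 0.479 ± 0.216 FPKM, Idi1 at 0.265 ± 0.165 FPKM and Stard4 at 0.101 ± 0.0938 FPKM. Synthesis enzymes thus spanned the range from Ebp to Idi1, and among the SREBP genes Srebf2, at 2.4 ± 1.1 FPKM, was listed below Srebf1 in WT means.

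In the early comparison none of the 40 genes passed an adjusted p of 0.05 in edgeR's quasi-likelihood test, against 0.59% of all tested genes (0.557% higher and 0.0334% lower). An unadjusted p below 0.05 was reached by 9 of the 40, all higher in mutant libraries, against 8.77% of all genes (5.37% higher, 3.4% lower). DESeq2 and limma-voom each called 1 of them, Msmo1, against 1.32% and 0.835% of all genes. In the authors' deposited table Msmo1 (q = 0.00458) and Fads1 (q = 0.0116) lay below 0.05. In the late comparison 1 of the 40 rose, Msmo1, and 1 fell, Insig1, against 5.47% of all tested genes called (2.77% higher and 2.71% lower). With DESeq2 and limma-voom 6 members each were called late, against 13.8% and 9.67% of all genes. An unadjusted p below 0.05 was reached late by 8 higher and 5 lower members, against 12.9% and 15.2% of all genes. In the authors' deposited table the late q values below 0.05 were those of Insig1 (0.0184) and Abcg1 (0.00689), both lower in mutants. Averaged over both stages, 4 of the 40 genes rose (Msmo1, Sqle, Lss and Fads1) and none fell, against 6.85% of all genes called (4.04% higher and 2.81% lower), while 18 reached an unadjusted p below 0.05, against 24.3%. DESeq2 and limma-voom called 8 and 11 on average, against 12% and 12.8% of all genes.

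The log2 fold change of mutant over WT was above 0 for 29 of the 40 genes early, against 43.1% of all tested genes, and for 28 late, against 50.1%. Its median over the 40 was 0.24 early and 0.42 late, with medians over all tested genes of -0.11 and 0.00. The members shared their direction at the 2 stages for 24 genes above 0 and 7 below. All 3 mutant libraries lay above all 3 WT libraries for 8 of the 40 genes early, against 10.1% of all genes, and for 12 late, against 14.9%. All 3 mutant libraries lay below all WT libraries for 0 of the 40 early and 1 late (Pmvk), against 11.8% and 10.9% of all genes. No test was made of the list as a whole.

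**Figure D1:**
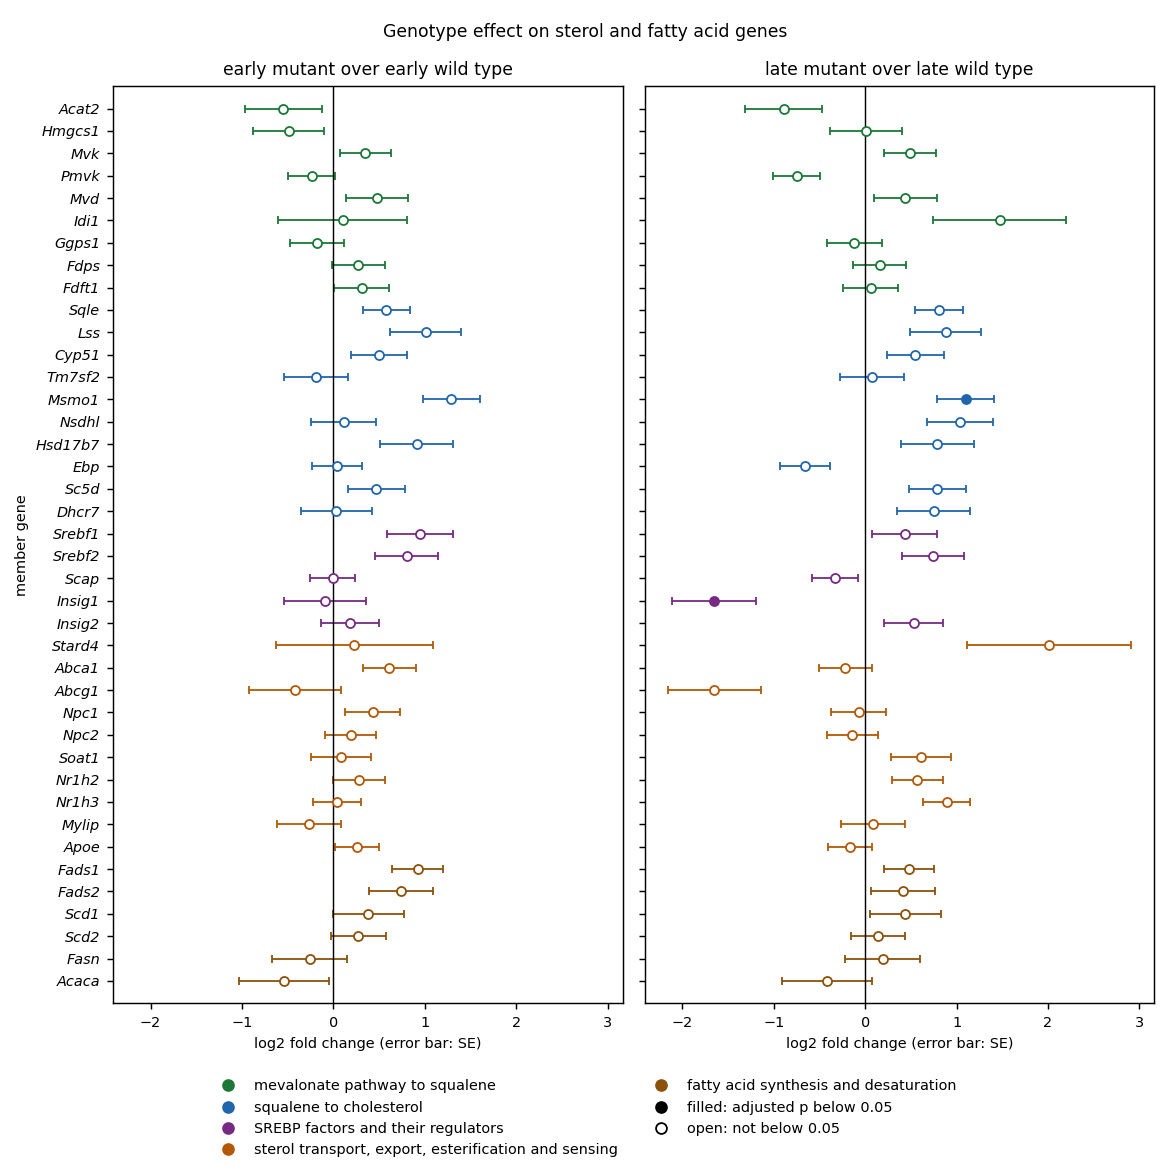
Log2 fold change of mutant over WT for the 40 genes, early (left) and late (right), with standard errors as bars, genes ordered and coloured by role, and filled points for an adjusted p below 0.05. The 2 filled points are Msmo1 (1.10) and Insig1 (-1.65), both late, and 9 of the 10 genes from squalene to cholesterol lie right of 0 in each panel.

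The enzymes from squalene to cholesterol held 3 of the 4 members called in the average over stages. Their log2 fold changes were above 0 for 9 of 10 genes at each stage, with a median of 0.49 early and 0.79 late. Of the 10, 0 were called early and 4 reached an unadjusted p below 0.05, all higher. Late, 1 was called and 6 reached an unadjusted p below 0.05, 5 higher and 1, Ebp, lower. Of all tested genes, 0.59% were called early and 5.47% late. An unadjusted p below 0.05 was reached by 8.77% of all tested genes early and 28.1% late. Msmo1 encodes the methylsterol monooxygenase that begins the removal of methyl groups from the sterol ring. It stood at 21.6, 29.4 and 19.9 CPM in early mutant libraries, against 9.84, 7.12 and 11.9 CPM in early WT libraries. Late, it stood at 25, 15.9 and 26.5 CPM in mutant and 11.9, 7.5 and 11.9 CPM in WT libraries. Every mutant library exceeded every WT library at both stages. The log2 fold change was 1.29 ± 0.31 (SE) early, with an adjusted p of 0.07, and 1.10 ± 0.31 late, with an adjusted p of 0.042. Averaged over stages it was 1.20 ± 0.22 (2.29-fold, adjusted p = 0.0023), a call held in all 19 alternatives tried with values from 1.11 to 1.35. The late call held in 11 of 20 alternatives, with adjusted p from 0.014 to 0.15, and without late WT replicate 1 the late value was 1.34 (adjusted p = 0.018). It was lost in the replicate block, in the fit of late libraries alone, and without any single early mutant library, late mutant replicate 1 or 3, or late WT replicate 2 or 3.

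Sqle encodes squalene epoxidase, which adds the oxygen that later becomes the sterol hydroxyl. Its levels were 34.8, 46.1 and 41.4 CPM in early mutant libraries, against 28.8, 29.7 and 23.6 CPM in early WT libraries. Late levels were 49, 33.1 and 37.3 CPM in mutant libraries and 28.1, 21.2 and 18.7 CPM in WT libraries. The genotypes did not overlap at either stage. Its log2 fold change was 0.58 ± 0.26 early (adjusted p = 0.54), 0.81 ± 0.26 late (adjusted p = 0.069) and 0.69 ± 0.18 on average (adjusted p = 0.029), and the averaged call held in 13 of 19 alternatives. The losses came without early mutant replicate 2 or 3, early WT replicate 3, late mutant replicate 1, or late WT replicate 2 or 3, at adjusted p up to 0.087. Without late WT replicate 1 the late Sqle value was 1.13 (adjusted p = 0.012).

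Lss encodes lanosterol synthase, which closes the squalene chain into the ring system. It stood at 6.17, 6.61 and 6.34 CPM in early mutant libraries and 1.72, 3.38 and 4.33 CPM in early WT libraries, and at 5.26, 6.22 and 6.64 CPM in late mutant libraries and 4.59, 2.45 and 2.76 CPM in late WT libraries. The mutant libraries of both stages lay within 5.26 to 6.64 CPM, above every WT library of their stage. The log2 fold change was 1.01 ± 0.39 early (adjusted p = 0.46), 0.88 ± 0.39 late (adjusted p = 0.15) and 0.95 ± 0.27 on average (adjusted p = 0.043). The averaged call held in 7 of 19 alternatives, and it was lost (adjusted p up to 0.097) in the replicate block, under the stricter filter and without any 1 library other than early WT replicate 3 or late WT replicate 1. Without late WT replicate 1 the late value was 1.34 (adjusted p = 0.032). A noncoding gene overlaps 8.16% of Lss exon bases on the opposite strand (GENCODE M21), and how the counting treated strand was not given in the sources used here.

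Hsd17b7 and Nsdhl encode the reductase and the dehydrogenase that complete the demethylation Msmo1 begins. Hsd17b7 stood at 6.06, 8.61 and 7.14 CPM in early mutant and 2.77, 6.02 and 2.83 CPM in early WT libraries, without overlap, and its log2 fold change was 0.91 ± 0.40 early and 0.79 ± 0.40 late (adjusted p = 0.53 and 0.21). Nsdhl differed between genotypes without overlap at the late stage, at 20.5, 11.8 and 18.2 CPM in late mutant and 7.38, 8.83 and 8.43 CPM in late WT libraries (log2 fold change 1.04 ± 0.36, adjusted p = 0.084). Early, the Nsdhl libraries of the genotypes overlapped and the log2 fold change was 0.11 ± 0.36. Cyp51, the lanosterol demethylase, had log2 fold changes of 0.50 ± 0.31 and 0.55 ± 0.31, and Sc5d, a sterol desaturase, of 0.47 ± 0.31 and 0.79 ± 0.31, early and late. Dhcr7, the reductase of the last step to cholesterol, had 0.03 ± 0.39 early and 0.75 ± 0.40 late, and all late mutant libraries lay above all late WT libraries. Tm7sf2, a sterol reductase, lay near 0 at both stages, at -0.19 ± 0.35 and 0.07 ± 0.35. None of these 6 genes passed the test in the early, late or averaged comparison, at adjusted p of 0.078 or more, although Sc5d without late WT replicate 1 was at 1.20 late (adjusted p = 0.02).

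Ebp, the sterol isomerase and the most abundant enzyme gene of this stretch, was the exception in direction late. It stood at 89.8, 86.3 and 94.8 CPM in early mutant libraries and 101, 77.1 and 85.9 CPM in early WT libraries, and at 60.8, 64.2 and 65.3 CPM in late mutant libraries and 58.7, 129 and 114 CPM in late WT libraries. The late mutant libraries lay close together, while late WT replicate 1 fell below them all and the other two late WT libraries well above. This gave a log2 fold change of 0.04 ± 0.27 early (adjusted p = 0.97) and -0.66 ± 0.27 late (adjusted p = 0.13), and without late WT replicate 1 the late value was -0.81 (adjusted p = 0.02).

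**Figure D2:**
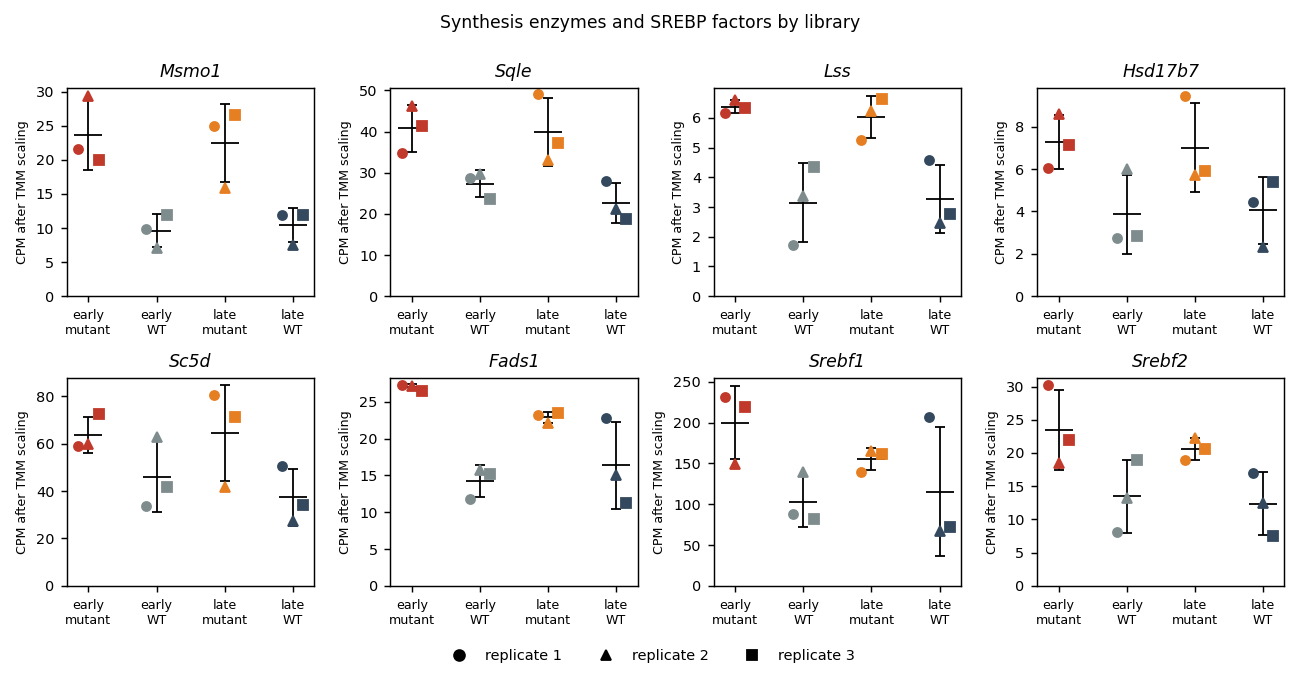
CPM by library of 6 synthesis enzyme genes and the 2 SREBP genes, in early mutant, early WT, late mutant and late WT groups, with symbols for replicates and horizontal lines and bars for mean and SD (n = 3). Every mutant library of Msmo1, Sqle and Lss lies above every WT library of its stage, and late WT replicate 1 is the highest late WT library for Sqle, Lss, Sc5d, Fads1, Srebf1 and Srebf2.

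The enzymes from acetyl-CoA to squalene divided in direction. Of the 9, 5 had a log2 fold change above 0 early and 6 late, with medians of 0.10 and 0.06. None was called in any comparison, against 0.59% of all tested genes early, 5.47% late and 6.85% on average. At an unadjusted p below 0.05 there were 0 early and 2 late, both lower, against 8.77% and 28.1% of all tested genes. Acat2 encodes the thiolase that joins acetyl-CoA units at the start of the pathway and showed, among genes of at least 5 CPM, the largest early and late differences of this class. It stood at 13.3, 24 and 19.1 CPM in early mutant and 45.4, 16 and 21.2 CPM in early WT libraries, and at 17.4, 16.4 and 20 CPM in late mutant and 15.8, 58.5 and 25.7 CPM in late WT libraries. The mutant libraries spanned 13.3 to 24 CPM, whereas 1 WT library of each stage, early replicate 1 and late replicate 2, reached well above the others. The log2 fold change was -0.55 ± 0.42 early (adjusted p = 0.67) and -0.89 ± 0.42 late (adjusted p = 0.18), and without late WT replicate 2 the late value was -0.21 (adjusted p = 0.78). Acat3, a close paralog of Acat2, could share reads with it.

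Fdps, which makes farnesyl diphosphate, was the most abundant of this class. Its levels were 58.3, 70.5 and 62.4 CPM in early mutant libraries and 50.3, 46 and 62 CPM in early WT libraries, and 65.3, 56.2 and 45.7 CPM in late mutant libraries and 29.1, 60.7 and 59.8 CPM in late WT libraries. The genotypes overlapped at both stages (log2 fold change 0.27 ± 0.29 early and 0.16 ± 0.29 late), and a predicted gene shares 77.4% of Fdps exon bases on the same strand. Pmvk, the phosphomevalonate kinase, stood at 63.3, 58.9 and 62.1 CPM in late mutant and 73.5, 122 and 115 CPM in late WT libraries, with every mutant library below every WT library. Its log2 fold change was -0.24 ± 0.26 early and -0.75 ± 0.26 late (adjusted p = 0.73 and 0.083), and -0.82 late without late WT replicate 1 (adjusted p = 0.026). Mvk, the kinase before it, ran the other way at 0.35 ± 0.28 and 0.49 ± 0.28, as did Mvd, the decarboxylase after it, at 0.48 ± 0.34 and 0.44 ± 0.34. Hmgcs1, the HMG-CoA synthase, had -0.49 ± 0.39 early and 0.01 ± 0.39 late. Idi1, the isopentenyl diphosphate isomerase, had few reads, 1.89, 0.773 and 1.42 CPM in late mutant and 0.557, 0.482 and 0.427 CPM in late WT libraries (log2 fold change 1.47 ± 0.73, adjusted p = 0.19). Ggps1, at the branch to geranylgeranyl diphosphate, had -0.18 ± 0.30 and -0.12 ± 0.30. Fdft1, the squalene synthase, had 0.31 ± 0.30 and 0.06 ± 0.30, but 20.9% of its exon bases overlap Ctsb on the opposite strand, a gene at a mean of 773 CPM here.

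Among the SREBP factors and regulators, 0 of 5 were called early (2 at an unadjusted p below 0.05, both higher) and 1 was called late, Insig1. Late, 2 reached an unadjusted p below 0.05, 1 higher and 1 lower, against 28.1% of all tested genes (8.77% early). The shares of all tested genes called were 0.59% early and 5.47% late. Srebf1, which encodes the SREBP form most tied to fatty acid synthesis, stood at 232, 149 and 219 CPM in early mutant libraries and 88.4, 139 and 82.2 CPM in early WT libraries. Late levels were 140.1, 165 and 161 CPM in mutant and 207, 67.8 and 71.8 CPM in WT libraries. Early, no mutant library overlapped a WT library, while late WT replicate 1 exceeded every late mutant library and the other two late WT libraries lay below them all. On the log2 scale the fold change was 0.95 ± 0.36 early (adjusted p = 0.46) and 0.43 ± 0.36 late (adjusted p = 0.46). Without late WT replicate 1 the late value was 1.28 (adjusted p = 0.0082), and without late WT replicate 2 it was 0.15 (adjusted p = 0.83).

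Srebf2, whose product drives cholesterol synthesis, stood at 30.2, 18.5 and 21.9 CPM in early mutant and 8.12, 13.3 and 19 CPM in early WT libraries, and at 18.9, 22.2 and 20.6 CPM in late mutant and 17, 12.5 and 7.54 CPM in late WT libraries. Early, 1 WT library lay above 1 mutant library, and late the genotypes did not overlap. The log2 fold change was 0.80 ± 0.34 early (adjusted p = 0.51), 0.74 ± 0.34 late (adjusted p = 0.17) and 0.77 ± 0.24 on average (adjusted p = 0.059), and late without late WT replicate 1 it was 1.17 (adjusted p = 0.034). Scap, the sterol-sensing escort of SREBPs, had -0.01 ± 0.25 early and -0.33 ± 0.25 late. Insig2, a retention protein of the endoplasmic reticulum, had 0.18 ± 0.32 and 0.53 ± 0.32, at adjusted p of 0.84 and 0.29.

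Insig1, an SREBP target that encodes the other retention protein, fell late. It stood at 10.4, 6.57 and 6.77 CPM in late mutant libraries, against 6.88, 35.3 and 32.4 CPM in late WT libraries. In the early stage it stood at 9.26, 11 and 7.83 CPM in mutant and 15.4, 8.18 and 6.42 CPM in WT libraries. The late difference lay in WT replicates 2 and 3, while WT replicate 1 was within the range of the late mutants and of the early libraries. In the test, the log2 fold change was -1.65 ± 0.46 late (3.14-fold lower, adjusted p = 0.043) and -0.09 ± 0.45 early (adjusted p = 0.95). The late call held in 9 of 20 alternatives, with adjusted p from 0.00065 to 0.17. Without late WT replicate 2 the value was -1.31 (adjusted p = 0.16), without replicate 3 it was -1.40 (adjusted p = 0.14), and without replicate 1 it was -1.97 (adjusted p = 0.0038). The call was also lost without early WT replicate 2, any single mutant library of either stage, in the replicate block and in the fit of late libraries alone.

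The genes of sterol transport, export, esterification and sensing had a median log2 fold change of 0.21 early, with 8 of 10 above 0, and 0.01 late, with 5 of 10 above 0. None of the 10 was called in the early, late or averaged comparison, against 0.59%, 5.47% and 6.85% of all tested genes. At an unadjusted p below 0.05 there was 1 higher early, and 2 higher and 1 lower late. Among all tested genes, 8.77% reached that level early and 28.1% late. Abcg1 and Abca1 encode the transporters that pass cholesterol to lipoproteins. Abcg1 stood at 19, 16.7 and 26.4 CPM in late mutant libraries, against 21.6, 87.8 and 85 CPM in late WT libraries. Early levels were 18.8, 25.3 and 28.2 CPM in mutant and 61.2, 19.7 and 15.7 CPM in WT libraries. As for Insig1, late WT replicates 2 and 3 stood high and late WT replicate 1 lay among the mutants, and early WT replicate 1 stood above its group. The log2 fold change was -1.65 ± 0.51 late (adjusted p = 0.066) and -0.42 ± 0.50 early (adjusted p = 0.76), and without late WT replicate 1 the late value was -1.93 (adjusted p = 0.0098). Abca1 ran in the opposite direction early, at 24.8, 20.4 and 33.8 CPM in mutant and 13.9, 18.4 and 19.3 CPM in WT libraries, without overlap (log2 fold change 0.61 ± 0.29, adjusted p = 0.56). Late, the Abca1 libraries overlapped at 14.1, 22.9 and 22.3 CPM in mutant and 28.1, 18.8 and 22 CPM in WT libraries (log2 fold change -0.22 ± 0.29).

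Nr1h3, the LXRα gene, stood at 21.5, 19.8 and 16.6 CPM in late mutant and 11.1, 9.19 and 10.9 CPM in late WT libraries, without overlap. In the early stage it stood at 18.2, 16 and 20.4 CPM in mutant and 21.1, 14.6 and 17.5 CPM in WT libraries. The late WT libraries were the lowest of all 12. The fitted log2 fold change was 0.89 ± 0.26 late (adjusted p = 0.052) and 0.04 ± 0.26 early (adjusted p = 0.97), and without late WT replicate 1 the late value was 1.07 (adjusted p = 0.019). Nr1h2, the LXRβ gene, had 0.28 ± 0.28 early and 0.57 ± 0.28 late, with an adjusted p of 0.19 late, and 0.99 late without late WT replicate 1 (adjusted p = 0.023). Mylip, an LXR target that encodes a ubiquitin ligase, had -0.27 ± 0.35 and 0.09 ± 0.35.

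Apoe stood at 51498, 38989 and 49626 CPM in early mutant and 43443, 36584 and 36711 CPM in early WT libraries, and at 37745, 35386 and 36451 CPM in late mutant and 52470.0, 40080.3 and 31144 CPM in late WT libraries. The genotypes overlapped at both stages (log2 fold change 0.26 ± 0.24 early and -0.17 ± 0.24 late, adjusted p = 0.7 and 0.67). Npc2 and Npc1, which release cholesterol from lysosomes, had 0.19 ± 0.28 and 0.43 ± 0.30 early and -0.14 ± 0.28 and -0.07 ± 0.30 late, and all early mutant libraries lay above all early WT libraries for Npc1. Soat1, which esterifies cholesterol for storage, stood at 8.66, 8.57 and 8.03 CPM in late mutant and 5.77, 7.34 and 3.46 CPM in late WT libraries, without overlap (log2 fold change 0.61 ± 0.33, adjusted p = 0.23), and at 0.08 ± 0.33 early. Stard4, a cytosolic sterol carrier, had between 0.0749 and 1.9 CPM in any library, and its late log2 fold change of 2.01 ± 0.90 had an adjusted p of 0.15.

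**Figure D3:**
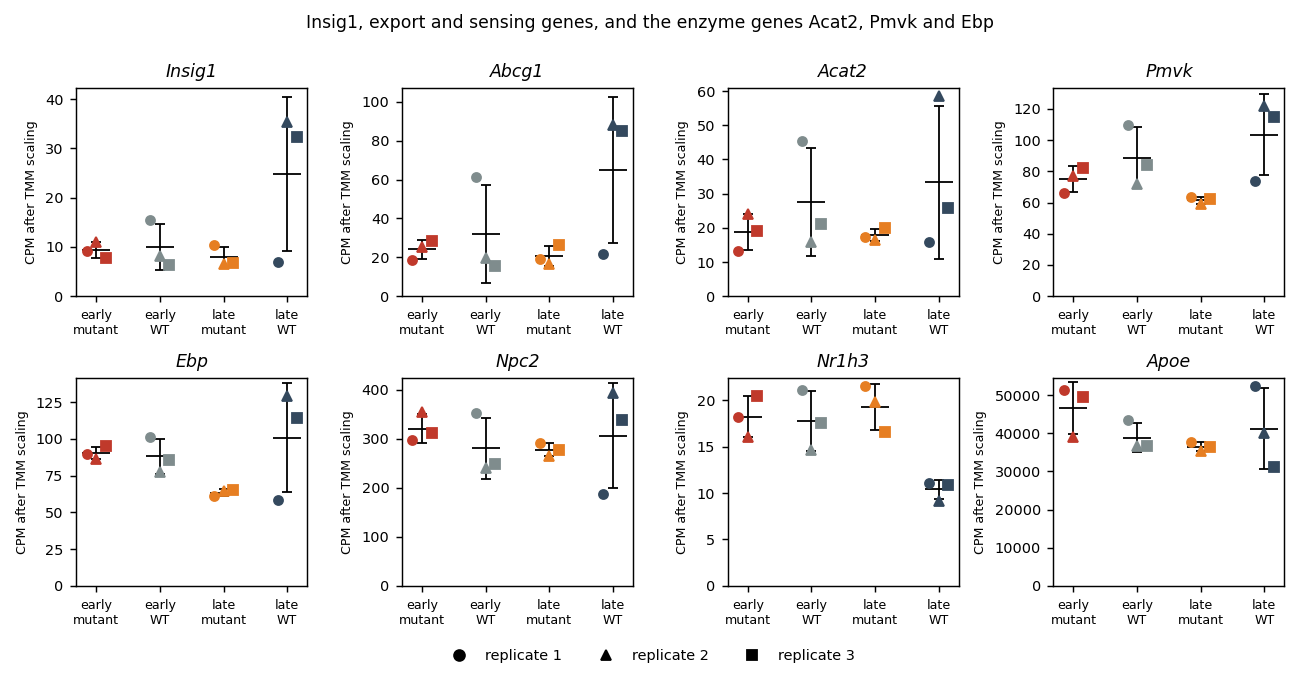
CPM by library of Insig1, Abcg1, Acat2, Pmvk, Ebp, Npc2, Nr1h3 and Apoe, in early mutant, early WT, late mutant and late WT groups, with symbols for replicates and lines and bars for mean and SD (n = 3). In late WT, replicates 2 and 3 lie above replicate 1 for Insig1, Abcg1, Acat2, Pmvk, Ebp and Npc2, while the late mutant libraries stay close together.

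Of the 6 fatty acid genes, 4 had a log2 fold change above 0 early and 5 late, with medians of 0.32 and 0.30. None was called early (2 at an unadjusted p below 0.05, both higher) or late (0 at an unadjusted p below 0.05), and 1 rose in the average. That unadjusted p was reached by 8.77% of all tested genes early and 28.1% late. Of all tested genes, 0.59% were called early, 5.47% were called late and 4.04% rose in the average. Fads1 encodes a desaturase of long polyunsaturated fatty acids. It stood at 27.3, 27.2 and 26.5 CPM in early mutant libraries, against 11.8, 15.7 and 15.2 CPM in early WT libraries, and at 23.2, 22.1 and 23.5 CPM in late mutant libraries, against 22.8, 15.1 and 11.2 CPM in late WT libraries. Early, the mutant libraries lay close together above all WT libraries, and late the WT libraries were spread out with replicate 1 among the mutants. The mutant over WT log2 fold change was 0.92 ± 0.28 early (adjusted p = 0.24), 0.48 ± 0.27 late (adjusted p = 0.25) and 0.70 ± 0.19 on average (adjusted p = 0.036). The averaged call held in 9 of 19 alternatives, and it was lost (adjusted p up to 0.089) in the replicate block and without any 1 library other than early WT replicate 2, late mutant replicate 2 or late WT replicate 1. Fads2, the desaturase that acts before Fads1, had 0.74 ± 0.35 early and 0.41 ± 0.35 late (adjusted p = 0.57 and 0.47). Without late WT replicate 1 the late values were 0.93 for Fads1 (adjusted p = 0.023) and 0.97 for Fads2 (adjusted p = 0.053).

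Scd2, a stearoyl-CoA desaturase and the most abundant gene of this class, stood at 94, 78.9 and 66.4 CPM in early mutant and 64.6, 48.8 and 85.6 CPM in early WT libraries, and at 44.6, 76.5 and 65.9 CPM in late mutant and 80, 47.2 and 42.1 CPM in late WT libraries. The genotypes overlapped at both stages (log2 fold change 0.27 ± 0.30 early and 0.14 ± 0.30 late). Scd1, its paralog, had 0.38 ± 0.39 and 0.44 ± 0.39, and reads of the Scd genes could be split between them. Fasn, the fatty acid synthase, had -0.26 ± 0.41 early and 0.19 ± 0.41 late, and Acaca, which makes malonyl-CoA for it, had -0.54 ± 0.49 and -0.42 ± 0.49. The desaturase genes therefore lay above 0 at both stages, while Acaca lay below 0 at both and Fasn changed sign, and of these only the Fads1 average passed the test.

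Summed over a library, the 10 enzyme genes from squalene to cholesterol gave 266 ± 16.6 CPM in early mutant and 208 ± 12.6 CPM in early WT libraries (SD, n = 3 each), without overlap (247 to 279 against 194 to 217 CPM). Late, they gave 241 ± 37.9 CPM in mutant and 201 ± 17.5 CPM in WT libraries, with ranges that overlapped (199 to 273 against 181 to 212 CPM). As a mean of log2(CPM + 1), which weights the 10 genes alike, the genotypes did not overlap at either stage, at 3.97 to 4.17 in early mutant and 3.51 to 3.75 in early WT libraries and 3.87 to 4.20 in late mutant and 3.32 to 3.59 in late WT libraries. The 9 enzyme genes before squalene gave 246 ± 24 CPM in early mutant and 258 ± 38.1 CPM in early WT libraries, and 231 ± 32.1 CPM in late mutant and 279.8 ± 63.3 CPM in late WT libraries. The higher sums of the later enzymes were thus not matched by those of the earlier enzymes, whose sums overlapped between genotypes at both stages. Weighted alike by log2(CPM + 1), the earlier enzymes averaged 4.08 in both early groups, 4.09 in late mutant and 4.06 in late WT libraries. The fatty acid genes gave 170.3 ± 23.7 CPM in early mutant and 130.4 ± 22.4 CPM in early WT libraries, and 150.5 ± 28 CPM in late mutant and 127 ± 51.8 CPM in late WT libraries. The transport, export and sensing genes without Apoe gave 477 ± 23.9 CPM in early mutant and 421 ± 97.6 CPM in early WT libraries, and 425 ± 14.1 CPM in late mutant and 470.2 ± 123 CPM in late WT libraries. Apart from the early sum from squalene to cholesterol, the ranges of all these sums overlapped between genotypes. With late WT replicate 1 set aside, the other late WT libraries had sums of 333 and 297 CPM before squalene and 568 and 511 CPM for transport, export and sensing without Apoe, above every late mutant library. Their sums of the fatty acid genes, 108 and 87.2 CPM, then lay below every late mutant library, and their sums from squalene to cholesterol, 211 and 212 CPM, within the late mutant range. As log2(CPM + 1) means, late WT replicates 2 and 3 stood at 4.20 and 4.13 before squalene. The late mutant range there was 3.94 to 4.29. For transport, export and sensing without Apoe they stood at 4.20 and 4.09, against 4.18 to 4.34 in late mutant libraries. Without Npc2 as well, they stood at 3.65 and 3.55, below every late mutant library (3.68 to 3.87). Over all 19 sterol enzymes the late sum was 472 ± 68.4 CPM in mutant and 481 ± 80.2 CPM in WT libraries, a log2 ratio of -0.03, whereas the mean of log2(CPM + 1) was 0.31 higher in mutant libraries.

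**Figure D4:**
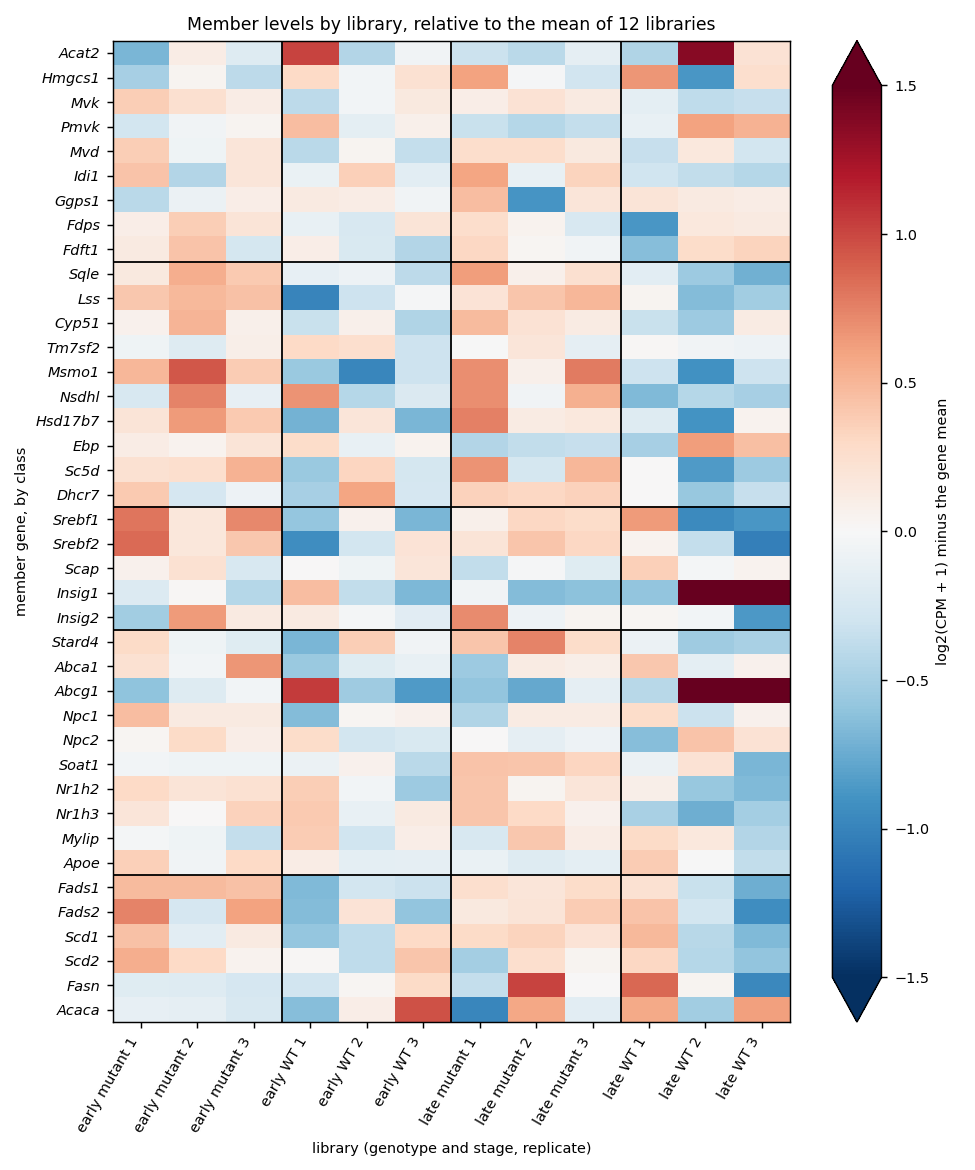
Log2(CPM + 1) of each of the 40 genes in each of the 12 libraries, minus the mean of the gene over the 12, with genes in rows by role and libraries in columns in the order early mutant, early WT, late mutant and late WT; red is above and blue below the gene's mean. Sqle, Lss, Msmo1 and Hsd17b7 are above their mean in all 6 mutant columns, and Insig1 and Abcg1 are darkest red in late WT replicates 2 and 3.

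The difference between the late and the early genotype effect was tested as an interaction of genotype and stage. No member passed an adjusted p of 0.05 in edgeR, DESeq2 or limma-voom, against 1, 327 and 68 of all genes (0.00557% in edgeR). In edgeR 2 members reached an unadjusted p below 0.05, against 11.2% of all genes. These were Insig1 (late minus early -1.56 ± 0.64, adjusted p = 0.36) and Nr1h3 (0.85 ± 0.37, adjusted p = 0.39). Msmo1 had an interaction of -0.19 ± 0.43. Late over early, the edgeR test called 0 members in mutant libraries and 0 in WT libraries, as it called 0% of all genes in each. At an unadjusted p below 0.05 there were 0 in mutant libraries, against 6.53% of all genes, and 2 in WT libraries, against 4.03%. The pair in WT were Insig1 (log2 fold change 1.31 ± 0.46) and Nr1h3 (-0.77 ± 0.26), both at an adjusted p of 1, whereas in mutant libraries they were at -0.25 ± 0.45 and 0.09 ± 0.26.

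Without late WT replicate 1, 13 of the 40 genes passed the test late, 9 higher and 4 lower, as 3909 of all genes then did. The higher ones were Sqle, Lss, Msmo1, Sc5d, Srebf1, Srebf2, Nr1h2, Nr1h3 and Fads1, and the lower ones Pmvk, Ebp, Insig1 and Abcg1. Early, 2 members then passed, Msmo1 and Fads1, as 179 of all genes did, and on average 14, as 3004 of all genes did. The late class medians were 0.04 before squalene, 1.10 from squalene to cholesterol, 0.82 for SREBP factors and regulators, 0.30 for transport, export and sensing and 0.92 for fatty acid genes. Of the genes still not called, Scd1 was then at 1.09, Fasn at 0.90 and Stard4 at 2.83 (adjusted p = 0.055, 0.12 and 0.061). With early WT replicate 2, the library of lowest depth, left out as well, 16 passed late (11 higher, 5 lower), against 4371 of all genes. Leaving out late WT replicate 2 or 3 instead left 0 of the 40 called late, with 306 and 364 of all genes called. With all 12 libraries, 983 of 17965 tested genes were called late, 106 early and 1230 on average. Without late WT replicate 1, calls thus rose over all genes and not among the members alone. Each refit filtered genes anew, so its number of tested genes may differ from 17965.

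Further genes of the same pathways were listed apart from the 40. Of 12 other genes of SREBP-driven synthesis and uptake, 0 passed early (2 at an unadjusted p below 0.05) and 1 rose late, Fabp5. Late, 6 reached an unadjusted p below 0.05, 4 higher and 2 lower, against 28.1% of all tested genes (8.77% early). The shares of all tested genes that rose were 0.557% early and 2.77% late. Fabp5, a fatty acid carrier, had a late log2 fold change of 1.23 ± 0.34 (adjusted p = 0.042), held in 12 of 20 alternatives with adjusted p up to 0.12. Acss2, which makes acetyl-CoA from acetate, ran lower late without overlap, at -0.89 ± 0.28 (adjusted p = 0.063).

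Of 21 other genes of sterol export, oxysterols and lipoproteins, Lpl rose early and Lpl and Lipa rose late. Among all tested genes, 0.557% rose early and 2.77% late. Lpl encodes lipoprotein lipase and stood at 11.4, 23.6 and 7.33 CPM in early mutant and 2.96, 2.99 and 1.47 CPM in early WT libraries, and at 18.1, 10.6 and 13.5 CPM in late mutant and 2.39, 2.77 and 3.19 CPM in late WT libraries. The genotypes did not overlap at either stage, and the log2 fold changes of 2.52 ± 0.42 and 2.33 ± 0.42 (adjusted p = 0.0041 and 0.0051) held in all 20 alternatives for each. Lipa, the lysosomal acid lipase that frees cholesterol from its esters, had 1.07 ± 0.25 early (adjusted p = 0.053) and 0.87 ± 0.24 late (adjusted p = 0.043), and the late call held in 8 of 20 alternatives with adjusted p up to 0.14. Averaged over stages, Lipa had 0.97 ± 0.17 (adjusted p = 0.002) and Ch25h, which makes an oxysterol that holds back SREBP, had 2.23 ± 0.49 (adjusted p = 0.0096). Ch25h had few reads, at 1.02 to 3.11 CPM in mutant and 0.187 to 0.967 CPM in WT libraries. Its averaged call held in 18 of 19 alternatives, the exception being the filter of 5 CPM, a level it did not reach. Lpl, Lipa and Ch25h are also genes of macrophages, whose summed markers stood at 302 CPM or more in every mutant library and 79.1 CPM or less in every WT library. The part of those cells in these differences was not tested.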

How the data were processed

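TRIzol-extracted RNA was made into strand-specific libraries, per the labels' protocols. Per the submitters' processing notes, reads were handled with fastp, HISAT2, HTSeq and DESeq2 on GRCm39, with versions, annotation and strand setting not given in the sources used here. For each of 12 libraries the authors deposited raw read counts by gene. FPKM values, also deposited by the authors, were used to compare levels between genes. Tables of the authors' own comparisons were deposited with log2 fold changes, a fold-change ratio, p-values and q-values, per the headers of the files, as deposited, and the values taken from them are named as theirs.

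Counts were tested with edgeR 4.0.16 (R 4.3.3): TMM scaling, filterByExpr on the 4 groups, robust quasi-likelihood F test in 1 fit of 12 libraries with 8 residual degrees of freedom, Benjamini-Hochberg adjustment over all 17965 tested genes, threshold 0.05. The common biological coefficient of variation was 0.464. The average over stages is the mean of the early and late genotype effects. Standard errors were derived from the F statistic. Printed CPM values are after TMM scaling. The self-test on simulated data ran before the fits. Alternatives were DESeq2 size factors, no filter, a filter of 5 CPM in 3 libraries, DESeq2 1.42.0, limma-voom (limma 3.58.1) with sample weights, a replicate block, fits restricted to the compared libraries, summing after a log2(CPM + 1) transform, and leaving out each library; leaving out early WT replicate 2 and late WT replicate 1 together was added after seeing the data.

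The members and gene lists were chosen with earlier results of these data known. Some genes of the pathway lists are not reported here and are left out of the counts of those lists. Values in every library are given for members past the threshold in any comparison and, within each role, for the member with the highest FPKM in WT and those with the largest early and late log2 fold change among genes of at least 5 CPM; other members shown by library were chosen after their values were seen. The labels call the replicates biological, but do not say what was pooled, so p-values measure the spread between these libraries. Same-numbered replicates correlated between genotypes at -0.16 to 0.10, so no pairing by number was assumed. Exon overlaps come from GENCODE M21 (GRCm38), a different build from the counts.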

Additional observations from a re-analysis of the deposited data

How the results depend on the processing

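Of the 40 genes, the early count of 0 called became 1 with no filter, DESeq2, limma-voom or with early WT replicate 2 and late WT replicate 1 both left out, and ran from 0 to 2 leaving out 1 library. The late count of 2 became 4 with no filter (2 higher, 2 lower), 4 under the filter of 5 CPM (3 higher, 1 lower), 6 with DESeq2 (3 higher, 3 lower), 6 with limma-voom (2 higher, 4 lower), 0 in the fit of late libraries alone, 0 with the replicate block and 16 without those 2 WT libraries, and ran from 0 to 13 leaving out 1 library. The averaged count of 4 became 10, 8 and 11 with no filter, DESeq2 and limma-voom, 2 with the replicate block and 16 without both WT libraries, and ran from 1 to 14. The calls among all tested genes moved too. Early they were 361 with no filter, against 106 in the reported fit. Late they were 1507 with no filter, 954 under the filter of 5 CPM, 2478 with DESeq2, 1737 with limma-voom, 489 in the fit of late libraries alone and 4371 without both WT libraries, against 983. On average they were 1801, 2160 and 2297 with no filter, DESeq2 and limma-voom and 3285 without both WT libraries, against 1230. Leaving out 1 library, they ran from 51 to 179 early, 229 to 3909 late and 566 to 3004 on average. The correlations between same-numbered replicates did not pair the libraries, and the block called 711 genes late and 1036 on average among all tested. The cause of these shifts was not tested; leaving out libraries also changes the number of samples.

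Leaving out 1 library, the early medians ran from -0.06 to 0.20 before squalene, 0.41 to 0.69 after it, -0.09 to 0.45 for SREBP genes, 0.10 to 0.30 for export and 0.17 to 0.56 for fatty acid genes. Late, they ran from -0.05 to 0.27, 0.60 to 1.10, 0.15 to 0.82, -0.05 to 0.30 and 0.05 to 0.92. The early median before squalene was -0.07 under the filter of 5 CPM and -0.04 with the replicate block, and that of export 0.10 under the filter. Without both WT libraries the median after squalene was 0.69 early and 1.09 late, and late 0.81 for SREBP genes, 0.29 for export (0.16 with limma-voom) and 0.91 for fatty acid genes. The late log2 ratio of the 19 sterol enzymes was -0.03 from summed CPM and 0.31 as a mean of log2(CPM + 1).

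Some uncalled values changed sign. Leaving out 1 library, early ranges were -0.80 to 0.03 for Acat2, -0.30 to 0.55 for Idi1 (-0.04 with the block), -0.25 to 0.58 for Nsdhl, -0.03 to 0.17 for Ebp, -0.21 to 0.54 for Dhcr7, -0.09 to 0.12 for Scap, -0.32 to 0.38 for Insig1, -0.09 to 0.45 for Insig2, -0.28 to 1.01 for Stard4, -0.74 to 0.46 for Abcg1, -0.05 to 0.23 for Soat1, -0.06 to 0.20 for Nr1h3 and -0.87 to 0.09 for Acaca. Late ranges were -0.35 to 0.53 for Hmgcs1, -0.41 to 0.27 for Ggps1, -0.07 to 0.25 for Fdft1, -0.34 to 0.08 for Abca1, -0.23 to 0.21 for Npc1, -0.27 to 0.08 for Npc2, -0.12 to 0.39 for Mylip, -0.34 to 0.17 for Apoe, -0.02 to 0.61 for Scd2 and -0.30 to 0.90 for Fasn. Under the filter of 5 CPM, early values were -0.06 for Ebp, -0.10 for Dhcr7, -0.03 for Soat1 and -0.06 for Nr1h3. Dhcr7 was -0.01 early in the fit of early libraries alone, and Scap 0.04 with no filter. With limma-voom, Insig1 was 0.07 and Abcg1 0.08 early, and Fdps -0.08, Fdft1 -0.12 and Npc1 0.09 late. Without both WT libraries, Nsdhl was -0.08, Ebp -0.03 and Nr1h3 -0.07 early, and Ggps1 0.03, Fdft1 -0.08, Abca1 0.07, Npc1 0.20 and Apoe 0.16 late.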

Other observations

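Among other SREBP-linked genes, Acsl3, which activates fatty acids, stood at 6.06, 7.51 and 6.28 CPM in early mutant libraries and 1.12, 2.55 and 4.17 CPM in early WT libraries, and at 7.22, 4.64 and 6.02 CPM in late mutant libraries and 3.44, 0.923 and 4.27 CPM in late WT libraries. All mutant libraries lay above the WT libraries of their stage, and Acsl3 rose in the average over stages (log2 fold change 1.19 ± 0.35, adjusted p = 0.049), a call held in 10 of 19 alternatives with adjusted p up to 0.1. Tmem97, a sterol-regulated membrane protein gene, did not overlap between genotypes at either stage, at log2 fold changes of 0.57 ± 0.24 early and 0.46 ± 0.24 late (adjusted p = 0.51 and 0.21).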
